A study of Oryza sativa Japonica Group and Oryza sativa Indica Group with 10 samples.

Results

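TOM20 and OsVDAC1 encode rice proteins of the mitochondrial outer membrane, and each is represented by 3 probe sets on the Affymetrix GeneChip rice array. A search by symbol or synonym, limited to probe sets that the annotation pairs with a single gene, gave 2 genes of 17905 and 6 probe sets of 57258. Both genes were chosen by the measured signals themselves, namely the cultivar difference and the disagreement between their probe sets. Their differences between cultivars are therefore given as a description, with no test. The arrays were hybridized with labeled cRNA from young panicles 2 cm long, 5 biological replicates of Nipponbare, a japonica cultivar with a sequenced genome, and 5 of 93-11, an indica cultivar. No treatment, transgene or induced mutation is named for either group, so cultivar is the only labelled difference. What the replicates shared, such as a plant or a growth batch, is not given.

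Most proteins of a plant mitochondrion are made in the cytosol and enter through the translocase of the outer membrane, the TOM complex. TOM20 is a receptor of this complex that recognizes targeting signals on precursor proteins at the cytosolic face. VDAC, the voltage-dependent anion channel or porin, is a beta-barrel pore of the same membrane through which metabolites and nucleotides pass, and plants carry several VDAC genes.

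The arrays differed in their level. The trimmed mean signal lay between 205 and 377 on the Nipponbare arrays and between 196 and 235 on the 93-11 arrays (exact permutation test, two-sided, raw p = 0.0317 and 0.159 when adjusted for the 5 measures of the arrays). Differences are therefore given as deposited and after scaling every array to a common trimmed mean. They are those of log2(signal + 16), 93-11 minus Nipponbare, which understates changes of weak probe sets. A call is a Benjamini-Hochberg adjusted p from limma under 0.05. As deposited, the calls over the whole array amounted to 1.66% higher in 93-11 and 11.9% lower, and with scaled signals to 7.84% and 9.21%. The median difference of all probe sets was -0.16 as deposited and 0.03 after scaling. As a check of the tissue label, 23 of 28 probe sets of young panicle markers were above a mean log10 signal of 2.5 in both cultivars and none of 21 endosperm probe sets was. Of 12 leaf marker probe sets, 7 were called lower in 93-11, and their summed signal was 12269 to 20421 on the Nipponbare arrays against 597 to 2685 on the 93-11 arrays. Most of this sum came from the 2 probe sets of CAB2R (means of 8948 and 4149 in Nipponbare). The 5 probe sets of OsrbcS and RBCS1 were not called as deposited. After scaling, Os.39038.1.A1_at of OsrbcS was called higher in 93-11 (0.87, limma adjusted p = 0.00679). The summed signal of 7 anther and tapetum probe sets was 464 to 802 in Nipponbare against 237 to 317 in 93-11, with 2 called lower. GAMYB made up most of this sum (means of 464 and 171), and the other probe sets were weak. The 2 called lower were of GAMYB and TDR, while EAT1 went the other way as deposited (0.28) and was not called. The actin 3'/5' ratio, a sign of RNA quality, overlapped between cultivars, at 2.74 to 4.54 in Nipponbare and 2.97 to 4.84 in 93-11, with the highest value on replicate 5 of each. The ratios of gapdh (1.87 to 59.6 and 0.836 to 9.92) and ef1a (0.312 to 2.92 and 0.0207 to 0.439) had higher means in Nipponbare but also overlapped, and that of cyclophilin was 3.02 to 3.46 and 2.79 to 3.58. In exact permutation tests the adjusted p of these 4 ratios ran from 0.238 to 0.786. The part of these tissues and of RNA quality in the values below was not tested.

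The 3 probe sets of TOM20, a gene of chromosome 1, gave 3 different pictures of the cultivars. The probe set Os.12984.1.S1_at was bright and near equal in both as deposited, OsAffx.5270.1.S1_at was several-fold higher in 93-11, and OsAffx.23982.1.S1_at was weak in both. A signal depends on the amount of transcript and on how well the probes match it, and these cannot be told apart in values that hold 1 number per probe set.

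On the Nipponbare arrays, numbered 1 to 5, Os.12984.1.S1_at gave signals of 3807, 5548, 4171, 3460 and 3027, a mean of 4003 ± 962 (SD, n = 5). The 93-11 arrays gave 4613, 3507, 4394, 3349 and 4110, a mean of 3995 ± 550 (SD, n = 5). The cultivars overlapped widely, with Nipponbare holding both the highest and the lowest array, and the log2 difference was 0.02 (SE 0.18). Scaling brought the arrays of a cultivar together, as the coefficient of variation in Nipponbare went from 24.0% to 5.81%. The scaled signals were 3434, 3607, 3776, 3240 and 3626 in Nipponbare against 4806, 4392, 4689, 4178 and 4843 in 93-11. Every scaled 93-11 array was then above every Nipponbare array, by 1.3-fold in the means (3537 ± 205 and 4582 ± 287, SD, n = 5 each) and 0.37 (SE 0.07) on the log2 scale. The direction of this probe set thus rested on the scaling. It ranked between percentiles 98.0 and 98.9 of the probe sets of each of the 10 arrays.

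OsAffx.5270.1.S1_at gave signals of 291, 416, 348, 250 and 230 on the Nipponbare arrays, a mean of 307 ± 75.7 (SD, n = 5). On the 93-11 arrays it gave 1649, 1429, 1309, 1332 and 1439, a mean of 1432 ± 134 (SD, n = 5). No array of 93-11 came near the Nipponbare range, and the lowest of them was above the highest Nipponbare array by more than the whole spread within either cultivar. The mean was 4.66-fold higher in 93-11 and the log2 difference was 2.19 (SE 0.17). After scaling it was 6.09-fold higher, with a log2 difference of 2.54 (SE 0.10), and scaled signals ran from 234 to 315 in Nipponbare and from 1397 to 1790 in 93-11. Its place in the array moved from percentiles 74.6 to 78.1 in Nipponbare to percentiles 93.3 to 95.1 in 93-11. The mean log10 signal was 2.48 in Nipponbare and 3.15 in 93-11, so it lay below 2.5 in one cultivar and well above it in the other.

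OsAffx.23982.1.S1_at gave 39.7, 54.2, 36.7, 29.8 and 13.1 in Nipponbare and 21.7, 21.4, 14.9, 33.7 and 28.1 in 93-11. These weak signals overlapped between the cultivars, and their means were 34.7 ± 15.0 and 24.0 ± 7.18 (SD, n = 5 each). The log2 difference was -0.30 (SE 0.25) as deposited and -0.05 (SE 0.21) after scaling, about the size of its error or less. At mean log10 signals of 1.5 and 1.36, this probe set lay in the middle of the arrays, between percentiles 39.7 and 59.1, and carries little weight on the level of TOM20.

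**Figure D1:**
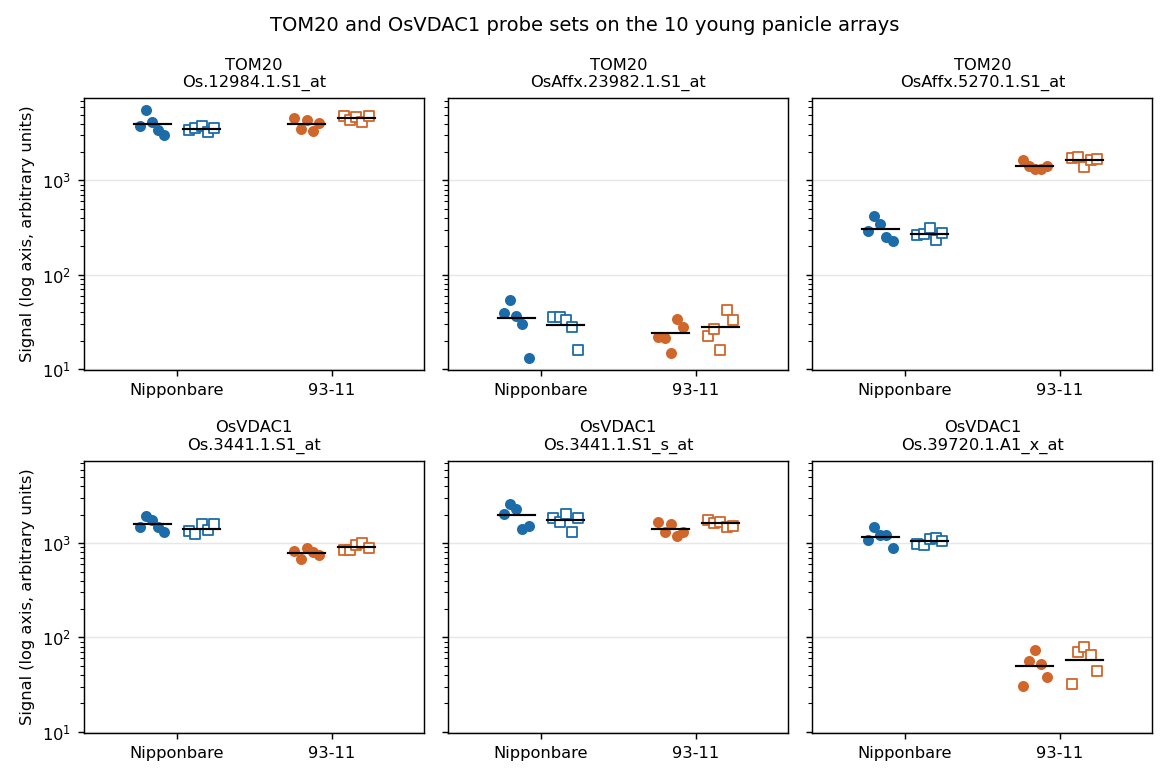
Signal of each probe set (log axis, arbitrary units) on the 5 Nipponbare (blue) and 5 93-11 (orange) arrays, with filled circles for deposited and open squares for scaled signals and black bars for the means. Among the TOM20 probe sets OsAffx.5270.1.S1_at separates the cultivars (307 against 1432), and among those of OsVDAC1 Os.39720.1.A1_x_at does so most widely (1175 against 50.0).

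OsVDAC1, a gene of chromosome 9, was lower in 93-11 by all 3 of its probe sets, but by very unequal amounts. Os.39720.1.A1_x_at was high in Nipponbare and near the middle of the array in 93-11, Os.3441.1.S1_at was lower by about a single log2 unit, and Os.3441.1.S1_s_at overlapped between the cultivars. The latter pair share a number in their identifiers, and Os.39720.1.A1_x_at has another. In Affymetrix naming, s_at marks probes shared by several transcripts or similar sequences, and x_at marks sets in which some probes may also match other genes.

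The signals of Os.39720.1.A1_x_at were 1075, 1486, 1221, 1215 and 877 in Nipponbare, a mean of 1175 ± 223 (SD, n = 5). In 93-11 they were 30.4, 55.9, 73.9, 52.3 and 37.5, a mean of 50.0 ± 17.0 (SD, n = 5). All 5 arrays of 93-11 were far below all 5 of Nipponbare, and the mean was 23.5-fold higher in Nipponbare. The log2 difference was -4.19 (SE 0.20), which depends on the constant added to weak signals. Scaling left an 18.0-fold difference, from 1046 ± 77.7 to 58.0 ± 19.5 (SD, n = 5 each), and a log2 difference of -3.88 (SE 0.17). The coefficient of variation went from 19.0% to 7.42% in Nipponbare with scaling, but hardly moved in 93-11 (33.9% and 33.6%), where the signal was weak. On the Nipponbare arrays the probe set stood between percentiles 90.3 and 91.9, and on the 93-11 arrays between 55.9 and 66.1.

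Os.3441.1.S1_at gave 1491, 1925, 1749, 1475 and 1318 in Nipponbare and 817, 673, 885, 803 and 754 in 93-11. The cultivars did not overlap, although the gap between the lowest Nipponbare and the highest 93-11 array was smaller than the Nipponbare range. The means of 1592 ± 242 and 786 ± 78.8 (SD, n = 5 each) differed 2.02-fold, or -1.0 (SE 0.15) on the log2 scale. After scaling, the arrays were still apart, at 1428 ± 148 and 906 ± 67.1 (SD, n = 5 each), and the difference was smaller, 1.58-fold or -0.64 (SE 0.09) on the log2 scale. In both cultivars the mean log10 signal, 3.20 and 2.89, was above 2.5.

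Os.3441.1.S1_s_at gave 2055, 2597, 2279, 1400 and 1528 in Nipponbare and 1674, 1319, 1582, 1184 and 1304 in 93-11. Nipponbare replicates 4 and 5 lay within the 93-11 range, so the cultivars overlapped, and the means were 1972 ± 504 and 1412 ± 206 (SD, n = 5 each). The log2 difference was -0.45 (SE 0.18) as deposited. Scaling reduced it to -0.10 (SE 0.11), less than its error, with means of 1749 ± 279 and 1619 ± 110 (SD, n = 5 each). This probe set and Os.3441.1.S1_at, with the same identifier number, thus differed in whether the cultivars separated.

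**Figure D2:**
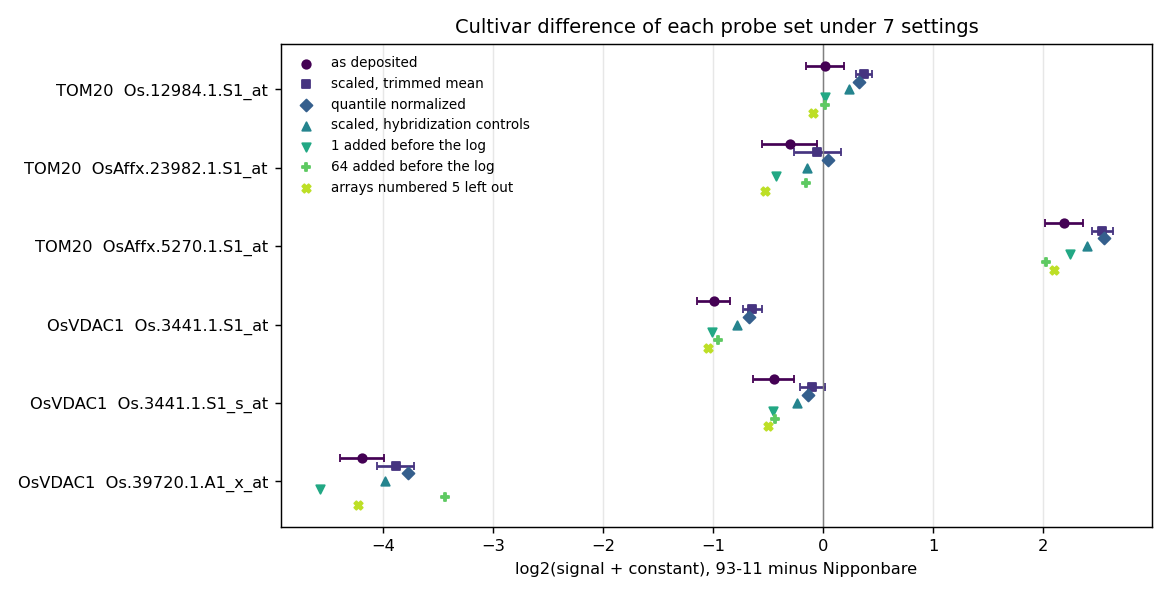
Difference of each probe set between cultivars on the log2 scale (93-11 minus Nipponbare) under 7 settings of scaling, added constant and arrays used, with error bars of 1 SE on the deposited and the scaled values. OsAffx.5270.1.S1_at stays between 2.03 and 2.55 and Os.39720.1.A1_x_at between -4.57 and -3.44, while Os.12984.1.S1_at lies on both sides of 0.

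The ratio of a pair of probe sets on the same array does not depend on the level of that array, so ratios were compared between cultivars. Their absolute size has no meaning, since different probes are not on the same scale. For TOM20, the ratio of Os.12984.1.S1_at to OsAffx.5270.1.S1_at was 13.1 ± 0.681 in Nipponbare (12.0 to 13.9) and 2.80 ± 0.359 in 93-11 (2.45 to 3.36; SD, n = 5 each). The ranges were far apart, and the ratio changed 4.68-fold between the cultivars while it varied by only 5.21% within Nipponbare. Against the weak OsAffx.23982.1.S1_at, by contrast, the ratio of Os.12984.1.S1_at overlapped, at 132 ± 55.9 and 183 ± 74.2.

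In OsVDAC1 the ratio of Os.3441.1.S1_at to Os.39720.1.A1_x_at was 1.37 ± 0.113 in Nipponbare and 17.3 ± 6.31 in 93-11 (SD, n = 5 each), a 12.6-fold change with no overlap. With Os.3441.1.S1_s_at in place of Os.3441.1.S1_at, the ratios were 1.68 ± 0.306 and 31.5 ± 14.2, an 18.7-fold change. The probe sets with the same identifier number also changed relative to each other. The ratio of Os.3441.1.S1_at to Os.3441.1.S1_s_at was 0.830 ± 0.136 (0.725 to 1.05) in Nipponbare and 0.563 ± 0.0741 (0.488 to 0.678) in 93-11, 1.47-fold apart and without overlap. The probe sets of either gene therefore did not report a common cultivar difference, whatever the scaling of the arrays.

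**Figure D3:**
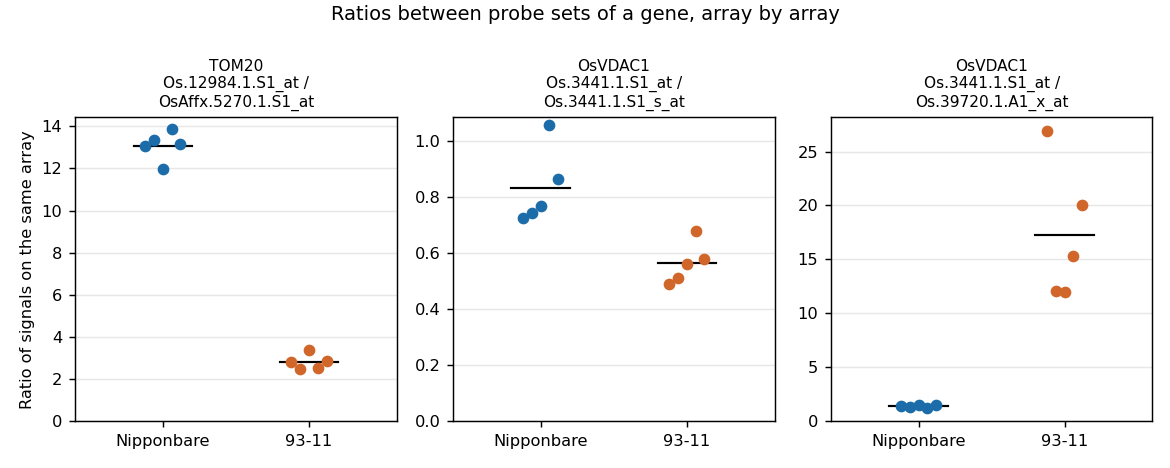
Ratio of the signals of a pair of probe sets of the same gene on the same array (linear axes from 0), for the 5 Nipponbare (blue) and 5 93-11 (orange) arrays, with black bars for the means. The ranges do not overlap in any of the 3 panels. Mean ratios are 13.1 against 2.80 for TOM20, and 0.830 against 0.563 and 1.37 against 17.3 for OsVDAC1. Of the pairs not drawn, the brightest over the weakest TOM20 probe set overlaps (132 against 183), and the others do not. Both genes were chosen partly by this disagreement.

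The range of log2 differences over the probe sets of a gene measures this disagreement. It was 2.49 for TOM20 and 3.74 for OsVDAC1 as deposited, and 2.59 and 3.79 after scaling. Among the 656 genes with exactly 3 probe sets, the median range was 0.46 as deposited, with quartiles of 0.24 and 0.90, and 66 genes (10.1%) exceeded 2. TOM20 was exceeded by 47 of them and OsVDAC1 by 19, and after scaling by 45 and 19. Both genes thus stood in the upper tail of a distribution that they were chosen from. Probe sets of a gene that were called in part were common on this array, as 213 of the 656 genes (32.5%) had some but not all of their probe sets called as deposited and 255 (38.9%) after scaling. Calls in opposite directions were rarer, in 13 and 35 genes.

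Within a cultivar, probe sets moved together less closely once the arrays were scaled. Deviations from the cultivar means correlated over the 10 arrays with a Pearson r of 0.87 between Os.12984.1.S1_at and OsAffx.5270.1.S1_at of TOM20 as deposited, and of 0.38 after scaling. For OsVDAC1, r between Os.3441.1.S1_at and Os.3441.1.S1_s_at was 0.76 and then 0.21, and r between Os.3441.1.S1_s_at and Os.39720.1.A1_x_at was 0.27 and then -0.16. Over all pairs of a TOM20 and an OsVDAC1 probe set, r ran from 0.21 to 0.89 as deposited and from -0.44 to 0.69 after scaling. These points share their arrays, and are given as a description only.

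By the same measure on scaled values, the named genes most like OsAffx.5270.1.S1_at among 1469 ranked were QM1, OsCslH1 and OsPDIL1-4, each with r of 0.88 over 10 arrays. QM1 names a ribosomal protein, OsCslH1 a cellulose synthase-like protein and OsPDIL1-4 a protein disulfide isomerase-like protein. Most like Os.39720.1.A1_x_at were OsGT2, a trihelix DNA-binding protein, with r of 0.85, GPI-A, a glucose-6-phosphate isomerase, with 0.80, and OsPP2C13, a protein phosphatase, with 0.79. Likeness here is of the scatter within cultivars. These r are the highest of 1697 ranked probe sets over 10 arrays, and whether they reflect any link between the genes was not tested. The cultivar differences of these 6 genes ran from -0.66 to -0.04 as deposited and from -0.31 to 0.31 after scaling.

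Among the other VDAC genes, OsVDAC2 separated the cultivars as deposited. Its signal was 6481 ± 1290 in Nipponbare and 4231 ± 415 in 93-11 (SD, n = 5 each). It was called lower in 93-11, by -0.60 on the log2 scale (SE 0.16, limma adjusted p = 0.0178), and by -0.24 after scaling (limma adjusted p = 0.0224). This call was lost without 93-11 replicate 2 (limma adjusted p = 0.0562) or 4 (0.0545) and with scaling to the hybridization controls (-0.38, limma adjusted p = 0.158), and after scaling to the trimmed mean it was lost without 93-11 replicate 3 (limma adjusted p = 0.0547).

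OsVDAC3 gave 1000 ± 162 and 778 ± 115 (SD, n = 5 each), a log2 difference of -0.35 that was not called (limma adjusted p = 0.177) and was -0.01 after scaling (0.985). The 2 probe sets of OsVDAC6 were not called either, at -0.13 for Os.5553.1.S1_at (1510 ± 288 and 1364 ± 161, limma adjusted p = 0.676) and -0.07 for Os.55320.1.S1_at (0.905). After scaling these were 0.22 (0.142) and 0.24 (0.355). OsVDAC5, at 3547 ± 662 and 3551 ± 528, had a log2 difference of 0.01 as deposited (limma adjusted p = 0.988) and was called higher in 93-11 only after scaling (0.36, limma adjusted p = 0.0267), which no longer held when any of 7 arrays was missing. Of the 5 probe sets of these 4 genes, 1 was thus called lower and none higher as deposited, and 1 each way after scaling, with a median difference of -0.13 and 0.22. Over the whole array, 11.9% were called lower as deposited, and 9.21% lower and 7.84% higher after scaling. OsVDAC4 was not analysed here, since no probe set was paired with it.

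Of the genes that work with TOM20 in protein import, 3 could be found by symbol or synonym among probe sets paired with 1 gene. None of their 4 probe sets was called as deposited (median difference -0.15). Import genes without such a name in the annotation were not examined. TIM9 and TIM13 are small chaperones of the intermembrane space that carry hydrophobic precursors onward from the outer membrane. TIM9 gave 3029 ± 689 and 2829 ± 293 (SD, n = 5 each), a log2 difference of -0.08 (limma adjusted p = 0.840) and of 0.28 after scaling (0.108), which was called without Nipponbare replicate 5 (0.36, limma adjusted p = 0.0244). Probe set Os.30691.1.S1_at of TIM13 gave 2823 ± 861 and 3126 ± 775, a difference of 0.17 (limma adjusted p = 0.714), and after scaling it was called higher in 93-11 (0.52, limma adjusted p = 0.0411), which again was lost without any of 7 arrays. Probe set Os.57549.1.S1_x_at gave -0.31 (limma adjusted p = 0.617) and 0.01 after scaling (0.994). OsMIA40, an oxidoreductase of the intermembrane space, was weak at 148 ± 38.4 and 124 ± 32.5 and gave -0.23 (limma adjusted p = 0.585) and 0.09 after scaling (0.796).

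Across all the lists of mitochondrial and cell death genes, without TOM20 and OsVDAC1, 1 of 57 probe sets was higher in 93-11 by this test and 11 were lower in the deposited values, with 7 and 9 in the scaled values. The share lower as deposited was above the 11.9% of all probe sets. Of those 11, however, 4 were among the 6 probe sets of cell death regulators, and most of these 4 were of 1 gene, OsLSD1. The median of -0.29 became 0.05 after scaling, close to that of all probe sets. The shares higher and lower after scaling were both above the 7.84% and 9.21% of all probe sets. These comparisons were not matched for signal. The number lower was 17 without Nipponbare replicate 5, but the number over the whole array also rose then, from 6788 to 9678 of 57258. Of these 57 probe sets, 40 were above a mean log10 signal of 2.5 in both cultivars.

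Subunits of the respiratory chain made up 17 of them, with 4 called lower as deposited and 3 lower and 1 higher after scaling. The shares of all probe sets were 11.9% lower as deposited, and 9.21% lower and 7.84% higher after scaling. Most of these 17 were of complex II, succinate dehydrogenase, which passes electrons from succinate to ubiquinone. The widest differences were among them. SDH3-2 gave 1598 ± 333 in Nipponbare and 360 ± 94.4 in 93-11 (SD, n = 5 each), with no overlap, and was lower by -2.11 on the log2 scale (limma adjusted p = 4.66e-07). After scaling its difference was -1.76 (limma adjusted p = 4.42e-06). SDH7 gave 3772 ± 704 and 1428 ± 228, a difference of -1.39 (limma adjusted p = 1.09e-05) and of -1.03 after scaling (limma adjusted p = 2.57e-05). The paralog SDH3-1 was not called, at 1218 ± 189 and 1105 ± 144 and a difference of -0.14 (limma adjusted p = 0.651). After scaling it gave 0.22 (0.317), which was called higher without Nipponbare replicate 5 (0.33, limma adjusted p = 0.0268). The higher call after scaling was also of complex II, by Os.5499.2.S1_at of SDH2-1 (0.36, limma adjusted p = 0.00801). SDH1, SDH4, SDH5, SDH6 and the other probe sets of SDH2-1 were not called in either form of the values. Lower calls in complex II were thus limited to SDH3-2 and SDH7. Most of its uncalled probe sets had differences below 0 as deposited and above 0 after scaling. Complex II as a whole was not tested. Another of the 4 lower calls was RISP, a Rieske protein whose synonyms include petC, a name used for the chloroplast protein, so its place in this list is uncertain. After scaling its call was lost without any of 8 arrays.

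Hexokinases phosphorylate glucose, and some bind to VDAC at the outer membrane in plants and animals. Of 8 hexokinase probe sets, 1 was called lower in both forms of the values and 1 higher after scaling. For all probe sets the shares lower were 11.9% and, after scaling, 9.21%, with 7.84% higher after scaling, so these counts are near the array's. The higher call was a probe set of HXK2 (0.35, limma adjusted p = 0.0181) whose call was lost without 93-11 replicate 2 (0.31, limma adjusted p = 0.054). The lower call was HXK4 by Os.3294.1.S1_at, with 161 ± 45.6 in Nipponbare and 42.4 ± 2.92 in 93-11 (SD, n = 5 each), a log2 difference of -1.56 (limma adjusted p = 4.36e-05) and of -1.27 after scaling (limma adjusted p = 1.54e-05). Its signals were weak in both cultivars. Names of hexokinase genes are used for more than 1 gene in the annotation, and another probe set listed under HXK4 belongs to a gene also named HXK8.

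Chaperones and proteases gave 1 call each way among 14 probe sets as deposited, against 1.66% higher and 11.9% lower of all probe sets. Scaling left 2 called higher and 1 called lower, against 7.84% and 9.21% of all probe sets. OsFTSH9, an FtsH protease, gave 82.0 ± 21.2 and 218 ± 45.8 (SD, n = 5 each) by Os.51057.1.S1_at, higher in 93-11 by 1.25 (limma adjusted p = 0.000283) and by 1.57 after scaling (limma adjusted p = 1.45e-06). Its other probe set, Os.51057.1.S1_s_at, gave -0.16 (limma adjusted p = 0.702) and 0.18 after scaling (0.341), so this gene too had probe sets that disagreed. OsFTSH1 was lower, at 680 ± 151 and 395 ± 58.2, by -0.75 (limma adjusted p = 0.00568) and by -0.41 after scaling (0.0116). FtsH proteases of plants occur in plastids as well as mitochondria. Of the 12 leaf marker probe sets given above, 7 were called lower in 93-11 in the same arrays. Any link between these and the values of the FtsH genes was not tested.

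VDAC is also studied in programmed cell death. Among 6 probe sets of cell death regulators, 4 were called lower as deposited and 3 after scaling, with none higher and a median of -0.80 and -0.46. Of all probe sets, 11.9% and 9.21% were called lower. OsLSD1, a zinc finger protein that restrains cell death in rice, was called lower by 3 of its 4 probe sets. The largest of these differences was in Os.12372.2.S1_x_at, with 2577 ± 455 and 1281 ± 240 (SD, n = 5 each) and a difference of -1.0 (limma adjusted p = 0.000435), or -0.65 after scaling (0.00139). The call of Os.40426.1.S1_x_at (-0.84, limma adjusted p = 0.0269) was lost after scaling and when any of 6 arrays was left out. AP25, an aspartic protease, gave 3901 ± 744 and 2284 ± 407, a difference of -0.76 (limma adjusted p = 0.00581) and of -0.41 after scaling (limma adjusted p = 0.00487). OsBI-1, the Bax inhibitor of the endoplasmic reticulum, was not called (-0.37, limma adjusted p = 0.164, and -0.01 after scaling, 0.950).

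The remaining lists held 1 probe set each and had no call as deposited. OsAOX1A, the alternative oxidase, was weak at 38.1 ± 11.2 and 51.1 ± 11.3, a difference of 0.32 (limma adjusted p = 0.433) and of 0.58 after scaling (0.073). ANT, the adenine nucleotide translocator of the inner membrane, gave 7309 ± 1877 and 4993 ± 793, a difference of -0.53 (limma adjusted p = 0.0862) that was called without Nipponbare replicate 5 (-0.64, limma adjusted p = 0.0234), and of -0.17 after scaling (0.282). Rf2, a restorer of fertility, gave 1560 ± 303 and 1599 ± 159, a difference of 0.05 (limma adjusted p = 0.894), and was called higher in 93-11 after scaling (0.40, limma adjusted p = 0.0163).

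**Figure D4:**
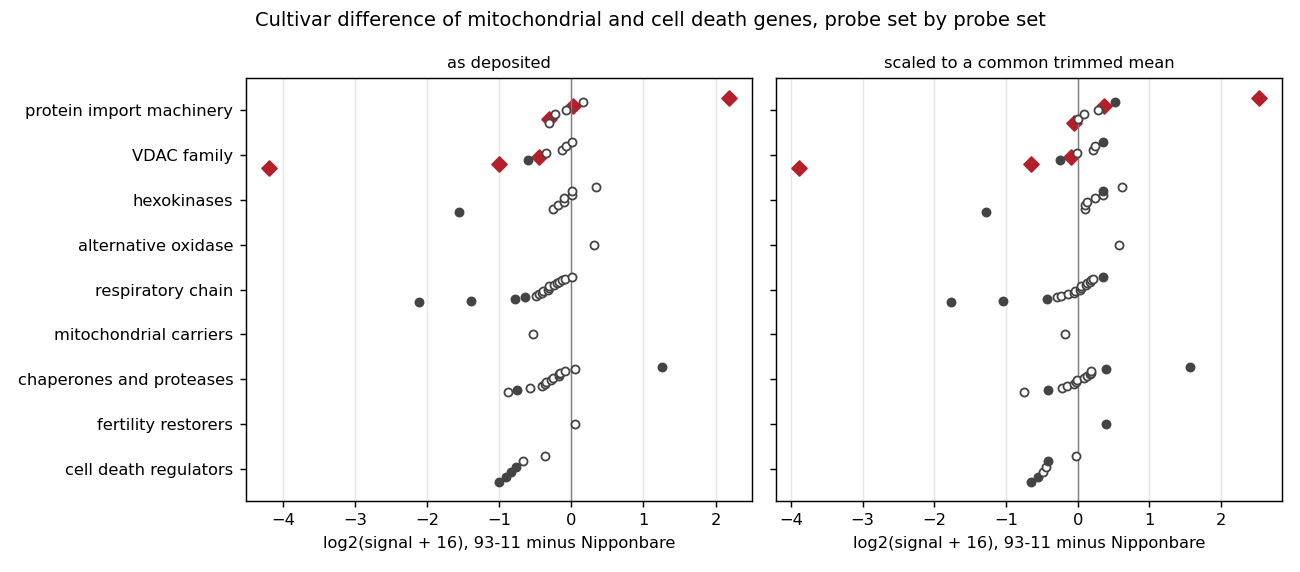
Differences between cultivars on the log2 scale (93-11 minus Nipponbare) of each probe set of 9 gene lists, as deposited (left) and scaled (right), with red diamonds for TOM20 and OsVDAC1 and, for the other genes, filled circles for probe sets called by limma and open circles for those not called. OsAffx.5270.1.S1_at of TOM20 (2.19 and 2.54) and Os.39720.1.A1_x_at of OsVDAC1 (-4.19 and -3.88) lie at the ends of their panels.

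In the gene order of the RefSeq table of assembly ASM3414082v1, no gene overlaps TOM20 or OsVDAC1. Among the 6 nearest genes of TOM20, 2 had probe sets and neither was called. Among the 6 nearest genes of OsVDAC1, 5 had probe sets. Of their 8 probe sets, 4 were called lower in 93-11 as deposited and 2 after scaling. Over the whole array, 11.9% of probe sets were called lower as deposited and 9.21% after scaling. Both calls that held after scaling were of the genes on either side of OsVDAC1. LOC4346850 gave means of 389 in Nipponbare and 91.6 in 93-11, a log2 difference of -1.93 (limma adjusted p = 1.21e-06) and of -1.61 after scaling (7.56e-07). LOC9268489 gave 78.0 and 24.0, a difference of -1.23 (limma adjusted p = 0.000983) and of -0.98 after scaling (0.00291). The other lower calls as deposited were of LOC4346848 (-0.55) and of a probe set of LOC4346853 (-0.72). The remaining probe sets of LOC4346853 gave 0.05, 0.09 and 0.01 and were not called. Whether the genes around OsVDAC1 differ as a region was not tested.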

How the data were processed

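Labeled cRNA of 5 young panicle replicates of each of Nipponbare and 93-11 was hybridized singly to 1-colour Affymetrix arrays. The authors deposited 1 signal intensity per probe set and array on a linear scale. GCOS 1.3 is the software that the submitters' processing notes name. How probes were summarised or scaled was not given in the sources used here. Array level differed. The number of arrays limits the precision. Of 57381 probe sets, 123 Affymetrix controls were left out.

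For each probe set, limma 3.58.1 (R 4.3.3; lmFit, then eBayes with trend) estimated 93-11 minus Nipponbare in log2(signal + 16). Tests were two-sided, adjusted over all 57258 probe sets by Benjamini and Hochberg, with calls under 0.05. All adjusted p-values of probe sets are from this fit. It was repeated on arrays scaled to a common trimmed mean (with the top 2% and bottom 2% of probe sets trimmed). Array measures were compared by exact permutation over the 252 divisions into 5 and 5. The study's methods describe the transcript samples as independent biological replicates, and p-values measure the spread between them. The fit was tested on simulated data.

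Probe sets were paired through the platform annotation and the RefSeq table of assembly ASM3414082v1, which gave 1 gene for 22436, several for 95 and none for 34727. The array's genome build is not named, so no coordinates are given. Of 14 gene lists by symbol, markers included, 13 had probe sets, and that of mitochondrial dynamics had none. In these, 15 probe sets were left out by identity, such as those of the transporter genes tom1 and tom2 and of histidine kinases named HK. Named in the text are all probe sets of TOM20 and OsVDAC1, the other VDAC and import genes, up to 2 called each way per list (or the 2 brightest where none was called), and the 3 genes most alike in scatter. SDH1, SDH2-1, SDH3-1, SDH4, SDH5, SDH6, RISP, HXK2, OsBI-1, the marker genes and the neighbours were named after their values were seen. The genes and lists were chosen with earlier results of these data known. Alternatives were quantile normalization, scaling to 27 hybridization control probe sets, other added constants, filters on the mean log10 signal, eBayes without trend or robust, the methods' t-test, the replicate number as a block, and leaving arrays out. Python 3.11.15, pandas 2.3.3, numpy 2.4.6, scipy 1.17.1 and matplotlib 3.10.9 were used.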

Additional observations from a re-analysis of the deposited data

How the results depend on the processing

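Scaling moved the differences of all 6 probe sets upward. For TOM20, Os.12984.1.S1_at went from 0.02 to 0.37 with scaling to the trimmed mean and 0.32 with quantile normalization, and OsAffx.5270.1.S1_at to 2.54 and 2.55. For OsVDAC1, Os.3441.1.S1_at went from -1.0 to -0.64, -0.68 and, with hybridization controls, -0.78, and Os.3441.1.S1_s_at from -0.45 to -0.10 and -0.14. Os.39720.1.A1_x_at went from -4.19 to -3.77 with quantile normalization, -4.57 with 1 added and -3.44 with 64 added, where the range over OsVDAC1 probe sets became 4.12 and 3.00. Os.12984.1.S1_at kept its sign in 14 of 19 alternatives as deposited and OsAffx.23982.1.S1_at in 16 of 17. The other probe sets of both genes kept theirs in every alternative run. A filter at a mean log10 signal of 2.0 gave no value for OsAffx.23982.1.S1_at, and 2.5 none for Os.39720.1.A1_x_at either.

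Probe sets called higher numbered 951, against 4490 scaled to the trimmed mean, 5772 with quantile normalization, 1470 with hybridization controls, 486 above 2.0 and 203 above 2.5. Those called lower numbered 6788, against 3928 above 2.0 and 2243 above 2.5, where fewer probe sets were tested. In the gene lists, 1 was called higher, against 7 scaled to the trimmed mean, 10 with quantile normalization and 0 above 2.5. The cause of the other moves was not tested.

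With 1 array left out, Os.12984.1.S1_at ran from -0.08 to 0.14, OsAffx.5270.1.S1_at from 2.10 to 2.30 and Os.39720.1.A1_x_at from -4.31 to -4.07. Calls higher ran from 782 to 1238 and lower from 5325 to 9678, and lower in the lists from 8 to 17. Both of the highest numbers of lower calls came without Nipponbare replicate 5. Over the 57 probe sets of the gene lists and the 2 of the genes flanking OsVDAC1, 46 values lost their call under an alternative, 57 gained one, 1871 stayed on the same side of the threshold and no called value reversed.

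The replicate numbers were not used to pair the samples, as no pairing is stated. Same-numbered arrays correlated at 0.05, 0.01, -0.05, 0.48 and 0.50 in their deviations from the cultivar means. Only numbers 4 and 5 matched their own number best, and whether those arrays shared a batch was not tested. With the replicate number as a block, 886 probe sets were called higher and 6543 lower, and the differences of TOM20 and OsVDAC1 were the same by construction.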
